A study of Homo sapiens with 8 samples.

Results

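The genes described here encode parts of the ubiquitin system in a Cas13d dropout screen: cullin-RING ligase, anaphase-promoting complex (APC/C) and COP9 signalosome subunits, enzymes that conjugate ubiquitin, NEDD8 and SUMO, and the p97 segregase with a cofactor. They were chosen by a rule on gene symbols that uses no measured values, though earlier results of these data were known when it was set. Genes that the deposited table typed as non-essential controls were left out. This gave 23 of the 1250 genes in the table, with 1286 of its 46829 guides on 180 exon-exon junctions. A member gene had between 8 and 167 guides, with a median of 54.

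The cells were A375, an established human melanoma line, as a monoclonal derivative with the genotype TetO-RfxCas13d, in which doxycycline induces an RNA-cutting CRISPR nuclease. A lentiviral pool gave each cell a guide RNA, and the guide cassettes were amplified from genomic DNA. Untreated cells were taken at Day 0 and cells kept in 1 ug/ml doxycycline at Day 7, 14 and 21, with 2 replicates each time. Each value is the deposited log2 fold change of a guide between a later day and Day 0 of the same replicate, so a negative value means that cells carrying the guide became rarer in the pool, and all 3 days of a replicate share its Day 0 library. All cells came from 1 clone, and the labels do not say how the replicates were separated, so p-values measure only the spread between these samples. A gene value is the mean over its guides in a library, and 3 or more guides were required. A gene, junction or guide is said to have fallen or risen where limma gave a Benjamini-Hochberg adjusted p under 0.05 over the whole table. limma shares information on the spread across all genes, junctions or guides, so a printed SD is not the spread behind its p-value.

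Ubiquitin is activated by an E1 enzyme, passed to an E2 and attached to target proteins with the help of an E3 ligase. Cullin-RING ligases are E3s built on a cullin scaffold, which is switched on when the ubiquitin-like protein NEDD8 is attached to the cullin and switched off when the COP9 signalosome removes it. The APC/C is a large E3 with a cullin-like subunit that marks mitotic cyclins and securin for destruction and so permits chromosome separation and exit from mitosis. Proteins that carry ubiquitin chains are pulled out of complexes and membranes by p97 and degraded by the proteasome.

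Loss of guides against these genes was small at Day 7 and clear from Day 14 on. At Day 21, 11 of the 23 genes had fallen and 0 had risen, against 20.8% lower and 0.654% higher among all 1223 genes tested. They included ANAPC4, UBE2D3, DDB1, CDC16, ANAPC5, VCP, ANAPC2, UBA2, CDC27 and COPS4, and the means of the 11 ran from −2.04 to −0.73. The median of the 23 gene means was −0.73, with −0.69 in replicate 1 and −0.72 in replicate 2, beside −0.28 over all genes tested. Those tested included 394 non-essential controls, a type left out of the members, of which 5.08% were lower at Day 21. Among the other 829 genes tested 28.2% were lower at Day 21, with a median of −0.43. For these 829 the share lower was 29.4% at Day 14 and 5.43% at Day 7. At Day 14, 9 members had fallen, where the shares over all genes were 22.1% lower and 0.736% higher, and all 9 were also lower at Day 21. The median was then −0.63, with −0.47 in replicate 1 and −0.79 in replicate 2. At Day 7 no member passed limma's threshold in either direction (4 had an unadjusted p under 0.05), the shares of all genes were 3.92% lower and 0.0818% higher, and the median was −0.14, with −0.043 in replicate 1 and −0.21 in replicate 2.

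The calls at Day 21 depended on the summary and the reference. A gene was then summarised by the median over its guides (the median guide, for short). None of the 11 genes passed limma's threshold in that fit (10 members had an unadjusted p under 0.05). With the all-guide median subtracted from each library only ANAPC4 passed. Its limma adjusted p was 0.0483, while DDB1, ANAPC5 and VCP had 0.0511. At Day 14 the median guide left 1 member lower. Shares of all genes called under these settings are not given here, so the counts cannot be set against the whole table. A further fit joined the 3 days with 1 shared spread and blocked on replicate. It treated the days as separate values, though those of a replicate share its Day 0 library. The block took the offset between replicates out of the spread, so the p-values leave that offset out and can be too small. More genes of the whole table were called in this fit. At Day 14 this made 17 members lower, beside 38.3% of all genes. At Day 21 this made 16 members lower, beside 45.5%, adding UBA1, NPLOC4, CDC20, CUL2 and UBE2N to the 11. UBA3 and UBE2M were called higher in it, beside 5.64% of all genes.

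The APC/C, the largest group with 7 of the 23 genes, had the lowest gene and the most genes that fell. Of its 7 members, 5 (71.4%) fell at Day 21 and 5 at Day 14, beside 20.8% and 22.1% of all genes tested. ANAPC4, a scaffold subunit of the APC/C platform, had 167 guides over 24 junctions (chromosome 4 between 25377344 and 25418154, hg38 as everywhere here). Its values in replicates 1 and 2 were −0.17 and −0.54 at Day 7, −1.75 and −1.91 at Day 14, and −2.06 and −2.01 at Day 21. Both replicates were negative on every day and differed little from Day 14 on, and the Day 21 mean was −2.04 ± 0.037 (SD, n = 2; limma adjusted p 0.0107). Its neighbour in the platform, ANAPC5 (chromosome 12 between 121308691 and 121328315), had Day 21 values of −1.56 and −1.46, a mean of −1.51 ± 0.070 (SD, n = 2; limma adjusted p 0.0144). CDC16 (chromosome 13 between 114235132 and 114265149), which forms part of the TPR arm that binds coactivators, had Day 21 values of −1.74 and −1.35, a mean of −1.54 ± 0.28 (SD, n = 2; limma adjusted p 0.0186). ANAPC2 (chromosome 9 between 137175154 and 137188415), the cullin-like catalytic subunit, had −1.13 and −1.41, a mean of −1.27 ± 0.20 (SD, n = 2; limma adjusted p 0.0211). CDC27 (chromosome 17 between 47121017 and 47189145), another subunit of the TPR arm, had −0.996 and −0.96, a mean of −0.98 ± 0.028 (SD, n = 2; limma adjusted p 0.027). In each of these 5 genes every Day 14 and Day 21 value was below every Day 7 value of the same gene.

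The other APC/C members did not pass the threshold. CDC20 (chromosome 1 between 43359396 and 43362950), the coactivator held back by the spindle checkpoint, had values of −0.088 and −0.26 at Day 7, −0.51 and −0.45 at Day 14, and −0.54 and −0.46 at Day 21. All 6 were negative, with a Day 21 mean of −0.50 ± 0.057 (SD, n = 2; limma adjusted p 0.0984). CDC23 (chromosome 5 between 138213063 and 138213151), a further TPR subunit, rested on 8 guides of a single junction, and its values were 0.14 and 0.26 at Day 7, −0.37 and −0.98 at Day 14, and −0.49 and 0.021 at Day 21. They were positive at Day 7, negative at Day 14 and of opposite sign in the replicates at Day 21, with a Day 21 mean of −0.23 ± 0.36 (SD, n = 2; limma adjusted p 0.477). That mean was positive in replicate 2 alone, after centring on all guides, with the median guide, and with a minimum of 50 for the Day 0 number defined with the single guides.

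Loss differed from junction to junction of the same gene. A junction here is an exon-exon boundary in the mRNA, located by the genomic interval that the table gives for it, and its guides share target sequence. Of 173 member junctions with at least 3 guides, 61 (35.3%) fell at Day 21 and 3 rose, beside 25.3% lower and 0.937% higher over all 6401 junctions tested. limma estimated a common spread for all junctions, with a standard error of 0.36. In the APC/C, 32 of 65 junctions fell and 0 rose. ANAPC4 had 13 of 22 junctions lower. The lowest, from 25390220 to 25390910, had Day 21 values of −4.62 and −5.74, a mean of −5.18 (limma adjusted p 3.02e-44). All of its 8 guides were negative in both replicates and 7 were called lower. The junction from 25414700 to 25415465 was the highest, with 0.38 and 0.12, a mean of 0.25 (limma adjusted p 0.737). ANAPC2 had such a contrast between adjacent junctions. The interval from 137180384 to 137180451 gave −4.54 and −5.56, a mean of −5.05 (limma adjusted p 3.47e-42), with all 8 guides called lower. The next, from 137180527 to 137180787, gave −0.15 and −0.14, a mean of −0.14 (limma adjusted p 0.874), with 0 of 8 called. Across junction means at Day 21, Pearson's r between replicates was 0.92 for the 22 of ANAPC4, 0.95 for the 10 of ANAPC2, 0.75 for the 8 of CDC16 and 0.35 for the 12 of CDC27. These are descriptions across junctions of a gene, and both replicates share the guide pool.

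Single guides in this group fell close to the limit of measurement. The table's values have a whole-number structure from which a lower bound on each guide's count plus any pseudocount, called its implied number, can be read. The lowest ANAPC4 guide, number 8 on its lowest junction, had an implied number of 80 at Day 0, 85 at Day 7, 5 at Day 14 and 1 at Day 21 in replicate 1, and of 176, 61, 20 and 1 in replicate 2. Its Day 21 log2 fold change was −6.92 ± 0.94 (SD, n = 2). An implied number of 1 is the lowest possible, and loss beyond a true 1 would not be measurable. As it is a lower bound, the true number may have been a multiple of it. ANAPC4 had 35 guides at an implied 1 in at least 1 replicate at Day 21, DDB1 had 22 and CDC16 had 9. CDC20 had only 1 such guide among its 54, number 2 on junction 43360097-43360192, which was also its lowest at −5.03 ± 1.56 (SD, n = 2).

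Of the cullin-RING ligase core, DDB1 and CUL2 were members. DDB1 (chromosome 11 between 61300219 and 61323978) is the adaptor that joins substrate receptors to CUL4 scaffolds. Its 114 guides on 15 junctions gave values of −0.23 and −0.62 at Day 7, −1.26 and −1.50 at Day 14, and −1.64 and −1.80 at Day 21. Both replicates were negative on every day and the Day 21 mean was −1.72 ± 0.11 (SD, n = 2; limma adjusted p 0.0126). Of its 14 junctions tested, 9 fell, beside 25.3% of all junctions tested. The lowest, from 61316567 to 61321594, had −4.09 and −3.60, a mean of −3.85 (limma adjusted p 4.6e-25). The highest, from 61313706 to 61313861, had 0.48 and 0.14, a mean of 0.31 (limma adjusted p 0.658). Even within a junction the guides of DDB1 spread widely. On that from 61311895 to 61311988, guide number 6 had −7.002 and −7.25 at Day 21, the lowest of the gene, and guide number 2 had 2.28 and 3.24, the highest (limma adjusted p 0.0202).

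CUL2 (chromosome 10 between 35010442 and 35090429), the scaffold of the ligases that use the VHL receptor, had weaker values over 111 guides on 16 partial_unique junctions: 0.079 and 0.042 at Day 7, −0.33 and −0.27 at Day 14, and −0.47 and −0.43 at Day 21. Its mean at Day 21 was −0.45 ± 0.024 (SD, n = 2; limma adjusted p 0.118) and did not pass. Of its 16 junctions 2 fell, beside 25.3% of all junctions tested. That from 35025198 to 35028809 had −3.26 and −3.14, a mean of −3.20 (limma adjusted p 1.15e-17), with all 4 guides negative in both replicates. That from 35063062 to 35071198 had −1.47 and −2.28, a mean of −1.88 (limma adjusted p 1.35e-06). The other 14 had means between −0.72 and 0.29. On junction 35010442-35011847, guide 3 was called higher (limma adjusted p 0.0446), but with 0.84 and 4.40 its size differed strongly between the replicates. CUL4A, a scaffold that DDB1 serves, was among the control genes left out. Its 6 guides gave −0.14 and −0.81 at Day 21 (limma adjusted p 0.242).

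None of the 3 NEDD8 enzymes, which switch cullins on, passed limma's threshold at Day 21 (1 had an unadjusted p under 0.05). Over all genes tested 20.8% were lower and 0.654% higher, and with only 3 genes a count of 0 lies near these shares. NAE1 and UBA3 together form the NEDD8 E1 and UBE2M is its main E2. NAE1 (chromosome 16 between 66805826 and 66826522) had values of 0.10 and −0.074 at Day 7, −0.28 and −0.11 at Day 14, and −0.28 and −0.029 at Day 21. They lay on both sides of 0 in the first week and slightly below it later, with a Day 21 mean of −0.16 ± 0.18 (SD, n = 2; limma adjusted p 0.547), whose sign turned under all-guide centring and under the median guide. UBE2M (chromosome 19 between 58556229 and 58558272) had −0.061 and −0.078 at Day 7, 0.16 and 0.28 at Day 14, and 0.35 and 0.29 at Day 21. Both replicates were above 0 from Day 14 on, and the Day 21 mean was 0.32 ± 0.038 (SD, n = 2; limma adjusted p 0.216). UBA3 (chromosome 3 between 69055525 and 69080333), the catalytic subunit of the E1, was the highest of the 23 genes, with −0.050 and 0.048 at Day 7, 0.14 and 0.41 at Day 14, and 0.34 and 0.62 at Day 21. They lay on both sides of 0 at Day 7 and above 0 on both later days. The Day 21 mean was 0.48 ± 0.20 (SD, n = 2; limma adjusted p 0.129), with an unadjusted p of 0.0482, so the gene mean did not pass. With the replicate block, whose p-values leave out the offset between replicates, the limma adjusted p was 0.00804 for UBA3 and 0.0343 for UBE2M.

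UBA3 had more guides called higher than lower. Of its 79 guides, 8 (10.1%) were called higher at Day 21 and 1 lower, where the shares over all 46829 guides were 0.218% higher and 11.1% lower. UBA3 guides made up 8 of the 11 higher guides of all 23 genes, the others being 1 each of DDB1, VCP and CUL2. In the joint fit with the replicate block 67 member guides were called higher, 18 of them of UBA3, so that UBA3 no longer held most of them, and 4.09% of all guides were higher. With a shared spread and no block 18 member guides were higher. In the whole table only KPNB1, looked up after the values were seen, had more higher guides than UBA3, 10. The highest was guide 1 on junction 69055905-69055999, with 0.17 and 0.77 at Day 7, 1.89 and 2.65 at Day 14, and 3.78 and 3.07 at Day 21. Between Day 0 and Day 21 the implied number grew from 93 to 1221 (replicate 1) and from 95 to 872 (replicate 2). Guide 4 on junction 69056693-69056778 grew from 145 to 922 and from 168 to 1691, at 2.73 and 3.20. The 8 guides lay on 6 junctions, and their Day 21 values were positive in both replicates, from 1.92 to 4.10. Between 6 and 18 UBA3 guides were called higher under the alternatives run, 6 after centring on the control guides and 18 with the replicate block. The guide called lower was number 1 on junction 69056063-69056182, at −4.79 and −4.40, and that junction also held a guide called higher.

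At junction level, 3 of the 13 UBA3 junctions rose and 0 fell, beside 0.937% higher and 25.3% lower over all junctions tested. The junction from 69063503 to 69064067 had 0.66 and 2.05, a mean of 1.35 ± 0.98 (SD, n = 2; limma adjusted p 0.000906). It held 4 guides, and its p-value rests on the common standard error of 0.36, whatever its own spread. That from 69056693 to 69056778 had 0.84 and 1.65, a mean of 1.25 (limma adjusted p 0.00265), and that from 69056815 to 69057255 had 0.60 and 1.26, a mean of 0.93 (limma adjusted p 0.0378). All 6 of these values were positive, while Pearson's r between replicates over all 13 junction means of UBA3 was −0.0023. Under the median guide only 1 UBA3 junction was called higher. The gene has 76 guides on partial_unique junctions and 3 on a fully_unique junction, and the categories differed by 0.56 (0.41 in replicate 1 and 0.71 in replicate 2; limma adjusted p 0.205). NAE1, its E1 partner, had 1 of 11 junctions lower and 0 higher. UBE2M had 0 of 3 called, its highest being that from 58557157 to 58558272 with 0.87 and 0.82, a mean of 0.84 (limma adjusted p 0.0661).

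The COP9 signalosome, which takes NEDD8 off cullins, was represented by COPS4 and COPS6. COPS4 (chromosome 4 between 83035298 and 83063075) had values of 0.14 and −0.14 at Day 7, −0.38 and −0.75 at Day 14, and −0.69 and −0.77 at Day 21. After Day 7 both replicates were negative, and the Day 21 mean of −0.73 ± 0.055 (SD, n = 2; limma adjusted p 0.0497) was the closest to the threshold of the genes that fell. Its call was lost after centring on the non-targeting guides or on all guides, with robust empirical Bayes, with no minimum of guides per gene, with the median guide and with a minimum implied Day 0 number of 50. Of its 5 junctions 2 fell, beside 25.3% of all junctions tested. That from 83045705 to 83049165 had −1.70 and −1.75, a mean of −1.72 (limma adjusted p 1.16e-05). That from 83057408 to 83063075 had −0.92 and −1.35, a mean of −1.13 (limma adjusted p 0.00747). COPS6 (chromosome 7 between 100089415 and 100091648), the non-catalytic partner of the deneddylase subunit, had −0.036 and −0.032 at Day 7, −0.15 and −0.0010 at Day 14, and −0.19 and −0.054 at Day 21. All 6 were negative and small, with 0 of 5 junctions called and a Day 21 mean of −0.12 ± 0.098 (SD, n = 2; limma adjusted p 0.607), positive after centring on all guides. COPS7A, a subunit gene typed as a control and so left out, had 0.35 and 0.17 over 5 guides (limma adjusted p 0.305).

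Among the ubiquitin E1 and E2 enzymes 1 of 3 fell, beside 20.8% of all genes tested. UBE2D3 (chromosome 4 between 102799500 and 102809791), an E2 used by many ligases, had 0.085 and −0.62 at Day 7, −0.87 and −1.09 at Day 14, and −2.04 and −1.53 at Day 21. Both replicates were negative from Day 14 on, with a Day 21 mean of −1.79 ± 0.36 (SD, n = 2; limma adjusted p 0.0175). This gene rested on 8 guides, and 1 of them was the sole guide on junction 102809703-102809791, with −6.07 and −6.85 at Day 21. The other 7, on the junction from 102799500 to 102801453, had −1.47 and −0.77, a mean of −1.12 (limma adjusted p 0.00824). Day 0 depth was low here, with a median implied Day 0 number of 39 in replicate 1, and fewer than 3 of its guides had at least 50 in both replicates. UBA1 (chromosome X between 47209687 and 47214793), the main ubiquitin E1, had −0.074 and −0.15 at Day 7, −0.39 and −0.47 at Day 14, and −0.93 and −0.61 at Day 21. All 6 were negative, and the Day 21 mean of −0.77 ± 0.23 (SD, n = 2; limma adjusted p 0.0603) just missed the threshold. Of its 8 junctions 2 fell, a share near the 25.3% of all junctions tested. The lowest, from 47213181 to 47214326, had −3.001 and −2.82, a mean of −2.91 (limma adjusted p 9.33e-15). UBE2N (chromosome 12 between 93411299 and 93441854), an E2 that builds non-degradative chains, had −0.22 and −0.21 at Day 7, −0.47 and −0.79 at Day 14, and −0.28 and −0.36 at Day 21 over 8 guides of a single junction. All were negative, and lower at Day 14 than at Day 21, where the mean was −0.32 ± 0.052 (SD, n = 2; limma adjusted p 0.216).

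Among the SUMO and other ubiquitin-like genes UBA2 fell. UBA2 (chromosome 19 between 34458924 and 34469039), the catalytic subunit of the SUMO E1, had −0.24 and −0.36 at Day 7, −0.57 and −0.89 at Day 14, and −0.95 and −1.27 at Day 21. The values became steadily more negative in both replicates, and the Day 21 mean was −1.11 ± 0.22 (SD, n = 2; limma adjusted p 0.0283). After centring on the non-targeting guides its adjusted p was 0.0501. Of its 4 junctions 2 fell, beside 25.3% of all junctions tested. That from 34460566 to 34464025 led with −2.59 and −3.34, a mean of −2.96 (limma adjusted p 2.83e-15). UBL5 (chromosome 19 between 9827984 and 9828836), a ubiquitin-like protein known from pre-mRNA splicing, was the member whose replicates lay furthest apart at Day 21, with 0.31 and −0.057 at Day 7, 0.29 and −0.16 at Day 14, and 0.61 and −0.33 at Day 21. Replicate 1 was positive and replicate 2 negative on every day, and the Day 21 mean was 0.14 ± 0.66 (SD, n = 2; limma adjusted p 0.769). Its partial_unique junctions differed from its fully_unique junction by −0.17 (0.14 in replicate 1 and −0.48 in replicate 2; limma adjusted p 0.722). In that comparison 24.4% of 45 genes were called lower and 6.67% higher, and neither UBA3 nor UBL5 was.

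VCP (chromosome 9 between 35059801 and 35066674), which encodes p97, had −0.17 and −0.51 at Day 7, −1.12 and −1.02 at Day 14, and −1.54 and −1.45 at Day 21. Both replicates were negative on all days and the Day 21 mean was −1.50 ± 0.067 (SD, n = 2; limma adjusted p 0.0145). Of its 9 junctions, 5 fell, beside 25.3% of all junctions tested. That from 35060923 to 35061014 had −4.44 and −3.62, a mean of −4.03 (limma adjusted p 2.28e-27), and that from 35063080 to 35064153 had −3.15 and −3.61, a mean of −3.38 (limma adjusted p 1.46e-19), with 7 of 8 guides called lower. The junction from 35059801 to 35060312 had positive values, 0.71 and 0.75, a mean of 0.73 (limma adjusted p 0.133), and held the highest VCP guide at 2.19 and 3.31 (limma adjusted p 0.021). The lowest VCP guide, number 8 of the first of these junctions, dropped from an implied number of 141 to 1 (replicate 1) and from 162 to 1 (replicate 2). NPLOC4 (chromosome 17 between 81565607 and 81636915), which with UFD1 brings ubiquitylated substrates to p97, had −0.043 and −0.16 at Day 7, −0.42 and −0.37 at Day 14, and −0.61 and −0.72 at Day 21. All were negative, with a Day 21 mean of −0.67 ± 0.076 (SD, n = 2; limma adjusted p 0.0608). The limma adjusted p of NPLOC4 was 0.0379 when guides with an implied Day 0 number under 50 were left out. Of its 11 junctions 4 fell, beside 25.3% of all junctions tested.

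Some junctions share 1 end, and the difference within such pairs was tested over the 62 pairs of the table, of which 6.45% were called lower and 0% higher in limma. This comparison was chosen after the values had been seen. The pair of UBL5 differed by 0.38 in replicate 1 and 0.20 in replicate 2 (limma adjusted p 0.835), and did not pass. None of the 3 pairs of CUL2 junctions that start at 35071339 passed, with limma adjusted p-values from 0.249 to 0.835 and unadjusted p-values from 0.0523 to 0.589.

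Ranked by the Day 21 mean, most neighbouring genes overlapped. Of the 22 pairs of neighbours in that order, 18 had overlapping replicate values. The 4 that did not were VCP and ANAPC2, CDC27 and UBA1, NPLOC4 and CDC20, and CUL2 and UBE2N. Within groups, the APC/C ran from −2.04 to −0.23, and the NEDD8 enzymes from −0.16 to 0.48. Differences between single genes were not tested.

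The change from Day 7 to Day 21, in which Day 0 cancels, was lower for 12 of the 23 genes and higher for 0, beside 23.5% lower and 1.23% higher among all genes tested (limma, adjusted p under 0.05). These were the 11 genes lower at Day 21 and UBA1. The Day 14 mean was 89.8% of the Day 21 mean for ANAPC4, 84.6% for CDC27 and 80.4% for DDB1. Among those 12 genes it was lowest for UBA1 (55.8%) and UBE2D3 (54.7%).

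Over single guides, 229 of the 1286 (17.8%) were called lower at Day 21, where 11.1% of all guides and 1.04% of the 963 non-targeting guides were. The count was 165 (12.8%, against 7.96% of all guides) at Day 14, when 1 member guide was higher against 0.0128% of all guides, and 23 (1.79%, against 2.1%) at Day 7, when 0 were higher in limma against 0.00641%. The share per gene was highest for ANAPC4 (34.1%), DDB1 (33.3%) and CDC16 (31.7%), so that even in the genes with the strongest loss most guides were not called. The share of guides at −1 or lower in both replicates was 41.3% for ANAPC4 and 2.53% for UBA3. It was 17.1% over all guides and 3.74% over non-targeting guides. By group, 24.7% of APC/C guides and 20.4% of cullin-RING core guides were called lower, 19.1% for p97 and NPLOC4, 5.13% for the COP9 genes and 2.78% for the NEDD8 enzymes. Across the 1286 guides, Pearson's r between the replicates was 0.27, 0.62 and 0.62 for Day 7, 14 and 21 in turn. This is a description across guides that share libraries, and for non-targeting guides at Day 21 it was 0.034.

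The authors' deposited table gives each member a GeCKO gene score, named after a Cas9 knockout library, which here ran from −1.83 to −0.911. In the authors' deposited table CDC23 (−1.56) and UBL5 (−1.5) had low scores, and neither passed the threshold in this screen. The highest was that of UBA2 (−0.911), which did. Across the 23 genes the Day 21 mean and that score had a Pearson's r of −0.40 and a Spearman's rho of −0.26, given as a description across genes. The negative sign means that lower scores tended to go with higher Day 21 means. The members cover only the range of scores given above. The authors' deposited table typed 16 members as essential under Cas13, of which 10 fell at Day 21, and 7 as not essential, of which 1 fell. The criterion behind the type is not given in the sources used here, so it may rest on these same values.

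Other genes of the pathway came from a list of ubiquitin, NEDD8, SUMO, APC/C and checkpoint genes, of which 12 could be tested. CUL4A is not on that list, while COPS7A, typed as a control, is on it and counts among the 12. At Day 21, 3 of the 12 fell (25.0%, near the 20.8% of all genes) and 1 rose, with a median of −0.50. SUMO2, whose product UBA2 activates, had −1.54 and −1.998 over 6 guides, a mean of −1.77 ± 0.32 (SD, n = 2; limma adjusted p 0.0162). USP39, a ubiquitin-protease-like splicing factor, had −2.08 and −1.70, and UBR4, a very large E3, had −1.44 and −1.43 over 559 guides. MAD2L1, which restrains CDC20 in the spindle checkpoint, had 1.12 and 0.98, a mean of 1.05 ± 0.094 (SD, n = 2; limma adjusted p 0.0245). Among 27 proteasome subunit and assembly genes, which act downstream, 10 fell at Day 21 (37.0%) beside 11 of 23 here (47.8%), with medians of −0.58 and −0.73. At Day 7, 2 proteasome genes had fallen and 0 of the ubiquitin genes. At guide level 22.0% of proteasome guides and 17.8% of the ubiquitin gene guides were called lower at Day 21. These differences between the sets were not tested.

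Likeness to ANAPC4 was measured as the Euclidean distance over the 6 values (3 days in 2 replicates), among all other genes with at least 3 guides. The 5 nearest genes included EFTUD2 at a distance of 0.34, AP2M1 at 0.41, PSMA3 at 0.41 and HNRNPU at 0.44. The Day 21 means of these 4 ran from −2.25 to −1.76.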

How the data were processed

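Guide abundance was measured by sequencing guide cassettes from genomic DNA. The authors deposited, per the file headers, log2 fold changes of guides against Day 0 in each replicate and a GeCKO gene score per gene, whose making is not given in the sources used here. cutadapt 3.5, Bowtie 1.1.2 and build hg38 are named per the submitters' processing notes. The counter, pseudocount and library scaling are not given in the sources used here. All 180 member junctions lay inside the RefSeq span (assembly GRCh38.p14) of the gene of the same symbol.

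limma 3.58.1 in R 4.3.3 tested the mean of the 2 replicate values against 0, each day alone, for genes and junctions with at least 3 guides and for guides, with p-values adjusted over the whole table. It was checked on simulated data. Named genes were the members called on any day or between Day 7 and 21 and the lowest and highest of each role group, with their lowest and highest guides. Other members are given too, the values of some genes are not reported here, and of other pathway genes only those called are named. Replicates are paired through their Day 0. The block used this pairing to take the offset between replicates out of the spread, so its p-values do not measure that offset. The members, lists and tests were chosen with earlier results of these data known. Alternatives covered centring, the guide summary, filters, the spread, the replicate block and leaving out a replicate.

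Read depth is not given in the sources used here. Every library's values (100%) could be written as a constant plus log2(a/b), with a and b whole and b no larger than 2000. The implied Day 0 number, the smallest that fits all days, had a median of 87 in replicate 1 and 119 in replicate 2 over member guides.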

Additional observations from a re-analysis of the deposited data

Results flagged for a closer look

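The change between Day 7 and Day 21 was itself larger than the spread between replicates for 12 genes (limma on the per-replicate differences, Benjamini-Hochberg adjusted p under 0.05), all of them lower at Day 21. Among APC/C genes it was −1.68 for ANAPC4, −1.28 for CDC16, −1.26 for ANAPC5, −1.13 for ANAPC2 and −0.84 for CDC27. Among the remaining genes it was −1.52 for UBE2D3, −1.30 for DDB1, −1.15 for VCP, −0.81 for UBA2, −0.73 for COPS4 and −0.66 for UBA1. Both replicates were negative in each case. Under the median guide none of the 12 passed in limma (8 members had an unadjusted p under 0.05). Under all-guide centring ANAPC4, DDB1, ANAPC5 and ANAPC2 passed, and under centring on the non-targeting guides all but UBA1 did.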

How the results depend on the processing

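With 2 replicates per day, leaving out a replicate gives values with no test, so counts have no such alternative. The median of the member gene means ran from −0.721 to −0.688 at Day 21, from −0.786 to −0.468 at Day 14 and from −0.214 to −0.043 at Day 7 when either replicate was left out. After centring on all guides it was −0.395 at Day 14 and −0.420 at Day 21, and under the median guide −0.395 and −0.421. The number of members lower at Day 21 was 1 after centring on all guides and 0 under the median guide (limma; 10 at an unadjusted p under 0.05). It lay between 9 and 16 under the other 7 alternatives. At Day 14 it was 1 under the median guide, 17 with 1 spread shared by the days and 17 with the replicate block. Shares of all genes called under the centrings, the median guide and the filters are not given here. The pairing by replicate number is part of the deposited values, and deviations of the replicates from the day means correlated across genes at 0.57 for Day 7 with 14, 0.48 for Day 7 with 21 and 0.73 for Day 14 with 21. Member guides called higher at Day 21 numbered 11, 18 with 1 spread shared by the days and 67 with the replicate block added to that, and at Day 14 they numbered 1, 3 and 13. Members called higher at Day 21 numbered 0, 2 and 2. Member guides called lower at Day 7 numbered 0 with 1 spread shared by the days (limma; 25 unadjusted), 0 with the replicate block (70 unadjusted) and 14 with robust empirical Bayes. Members lower in the change from Day 7 to Day 21 numbered 4 after centring on all guides, 6 after centring on the control guides and 0 under the median guide (limma; 8 unadjusted). Signs changed for 3 genes that were not called: CDC23 was 0.075 after centring on all guides, 0.17 without guides under an implied 50 at Day 0 and 0.036 under the median guide. NAE1 was 0.15 and 0.012 under those first and last settings, and COPS6 was 0.18 after centring on all guides. The cause was not tested. The planned contrast of common junctions with other categories could be made for 0 members. At Day 21 the implied number was 1, the lowest possible, for 74 member guides of replicate 1 and 60 of replicate 2. As it is a lower bound, it does not show that all of these were at the limit of measurement.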
